A study of Mus musculus with 43 samples.

Results

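Iron enters most cells through the transferrin receptor, is stored inside the ferritin shell, and leaves through ferroportin, while heme oxygenase releases iron from heme. The heart depends on this traffic for the heme and iron-sulfur proteins of its mitochondria. The 9 genes described here are Tfrc (transferrin receptor), Slc11a2 (the divalent metal transporter DMT1), Fth1 and Ftl1 (ferritin heavy and light chain), Slc40a1 (ferroportin, the iron exporter), Heph and Cp (hephaestin and ceruloplasmin, ferroxidases that work with export), Hamp (hepcidin, the hormone that removes ferroportin) and Hmox1 (heme oxygenase 1). They are 9 of the 57010 genes of the count table, found by symbol. The set was chosen from one contrast, the fall of Tfrc in wild-type hearts at day 30 after myocardial infarction (MI), so that contrast is described and not tested.

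Bulk RNA was sequenced from mice that were wild type (WT) or carried Q150X, a stop codon placed in Vegfa by CRISPR and labelled HO; the material was the whole heart, endothelial cells or cardiomyocytes. Hearts were taken at homeostasis (3 WT, 3 Q150X libraries), at day 7 (4 and 4) and at day 30 (3 and 4) after MI. Endothelial cells were taken at homeostasis (3 and 3) and day 3 (2 and 2), and cardiomyocytes at homeostasis (3 and 3) and day 3 (3 and 3). The labels name no strain or age and do not say whether replicates came from separate animals, so p-values measure the spread between these libraries. Levels are CPM, that is counts scaled to a common library size with TMM factors within a compartment, and a gene was called when its adjusted p in edgeR's quasi-likelihood test was under 0.05.

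Depth was 25035490 to 45243608 counts per library. Vegfa itself was at 163 to 654 CPM in WT hearts and at 149.6 to 620.5 CPM in Q150X hearts, and counts per gene cannot show the stop codon. Endothelial libraries at homeostasis held 12240 to 14300 CPM of 12 endothelial markers and cardiomyocyte libraries 51410 to 82650 CPM of 12 cardiomyocyte markers. Several libraries stood apart. Replicate 1 of both homeostasis heart groups carried the atrial light chain Myl7 at 524 (WT) and 467 (Q150X) CPM, against at most 2.76 CPM in every other heart. At day 3, Q150X endothelial replicate 2 had the lymphocyte gene Rag1 at 1286 CPM and the endothelial list at 1019 CPM, against 5590 CPM for that list in replicate 1. WT day-7 heart replicate 4, where Xist was at 4.13 CPM against at most 0.627 CPM in every other heart, was left out with them. All 4 day-3 endothelial libraries held Xist at 493.5 to 1085 CPM and Ddx3y at no more than 0.501 CPM, the reverse of the 6 homeostasis libraries, so sex and time cannot be told apart there. Results that rest on these libraries are also given without them.

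Several of these messenger RNAs carry iron-responsive elements, short hairpins bound by iron regulatory proteins when iron is low. In a 5′ untranslated region (UTR) such a hairpin holds back translation, and in the 3′ UTR of Tfrc it protects the message from decay, so RNA counts can register the second kind of control and not the first. A search of GENCODE vM21 transcripts (build GRCm38) for an unpaired C, a stem of 5 pairs and the loop CAGTGN found the sites below, shown because this kind of hairpin is what links Tfrc and ferritin messages to iron. Each is printed 5′ to 3′ on the transcript strand, with the loop in capitals.
Fth1, 5′ UTR, chr19:9982732-9982760, plus strand: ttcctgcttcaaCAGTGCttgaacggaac
Ftl1, 5′ UTR, chr7:45459779-45459807, minus strand: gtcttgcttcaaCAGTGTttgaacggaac
Slc40a1, 5′ UTR, chr1:45925465-45925493, minus strand: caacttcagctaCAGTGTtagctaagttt
Tfrc, 3′ UTR, chr16:32631219-32631247, plus strand: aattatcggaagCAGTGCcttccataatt
Tfrc, 3′ UTR, chr16:32631598-32631626, plus strand: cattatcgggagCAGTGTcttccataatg
Tfrc, 3′ UTR, chr16:32631663-32631691, plus strand: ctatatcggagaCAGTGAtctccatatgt
Tfrc, 3′ UTR, chr16:32631710-32631738, plus strand: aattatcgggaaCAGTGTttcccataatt

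The same pattern occurred in the 5′ UTR of 0.146% of genes that have one and in the 3′ UTR of 0.68%. Tfrc held 4 matches, and Fth1, Ftl1 and Slc40a1 held 1 each. The other 5 members had no match, which says only that these letters and pairs were not found. Among RefSeq promoter windows (GRCm38.p6, 250 bases before to 50 after a start), 5 of the 9 members had an entry. Both Tfrc windows held ACGTG, a motif found in 19.6% of all windows. CACGTG (7.2% of all windows) and TGANNNNGC (41.3%) were in none of the 8 member windows, and CAGTGN (55.8%) was in windows of Tfrc, Ftl1 and Hamp. Both strands were searched, ACGTG lies within CACGTG, and a match is a description of letters.

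Per kilobase of exon, Fth1 was the most abundant member in every group. In WT hearts at homeostasis it stood at 378 CPM per kb, followed by Ftl1 at 44.3, Tfrc at 17.3, Cp at 8.77, Hamp at 7.86, Hmox1 at 4.58, Slc11a2 at 3.78, Slc40a1 at 2.63 and Heph at 0.485. The Hamp value came from 1 library. The length used was that of all annotated exons of a gene together. For Slc40a1 it was 9000 bases, against 3370 for its transcript Slc40a1-201, so the order of members with close values depends on that choice. Reads of the ferritin genes may be shared with their processed pseudogenes, of which Ftl1-ps1 reached at most 9.31 CPM, so the ferritin levels are uncertain by an unknown amount.

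Tfrc, which brings transferrin-bound iron into the cell, was lower in hearts after MI than at homeostasis. Its level in WT hearts at homeostasis was 65.5, 115.8 and 139.9 CPM, and at day 7 it was 17.5, 21.3, 16.3 and 27.0 CPM. In Q150X hearts it was 296.7, 216.9 and 143.5 CPM at homeostasis and 16.8, 17.45, 15.3 and 18.0 CPM at day 7. The groups did not overlap in either genotype. The log2 fold change at day 7 was -2.38 ± 0.287 (SE) in WT (adjusted p = 4.19e-05) and -3.70 ± 0.299 in Q150X (adjusted p = 3.75e-07). The WT day-7 comparison shares its homeostasis libraries with the contrast the set was chosen from.

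At day 30 the Q150X hearts had Tfrc at 31.8, 43.5, 31.6 and 61.9 CPM, all below the 3 homeostasis libraries. The fold change was -2.38 ± 0.286 on the log2 scale (adjusted p = 4.41e-05), in libraries the choice did not use. WT hearts at day 30 had 31.1, 34.2 and 20.4 CPM, a log2 difference of -1.91 ± 0.312 that is given as a description. By fitted fold change, Gpr17 (-2.48), Cd46 (-2.06) and Atcay (-1.91) lay beyond Tfrc in that contrast. That order covers only called genes without overlap between the groups, above an expression limit and without a pseudogene or provisional name. Without the libraries that stood apart the log2 changes were -2.80 in WT and -3.41 in Q150X at day 7 and -2.10 in Q150X at day 30.

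**Figure D1:**
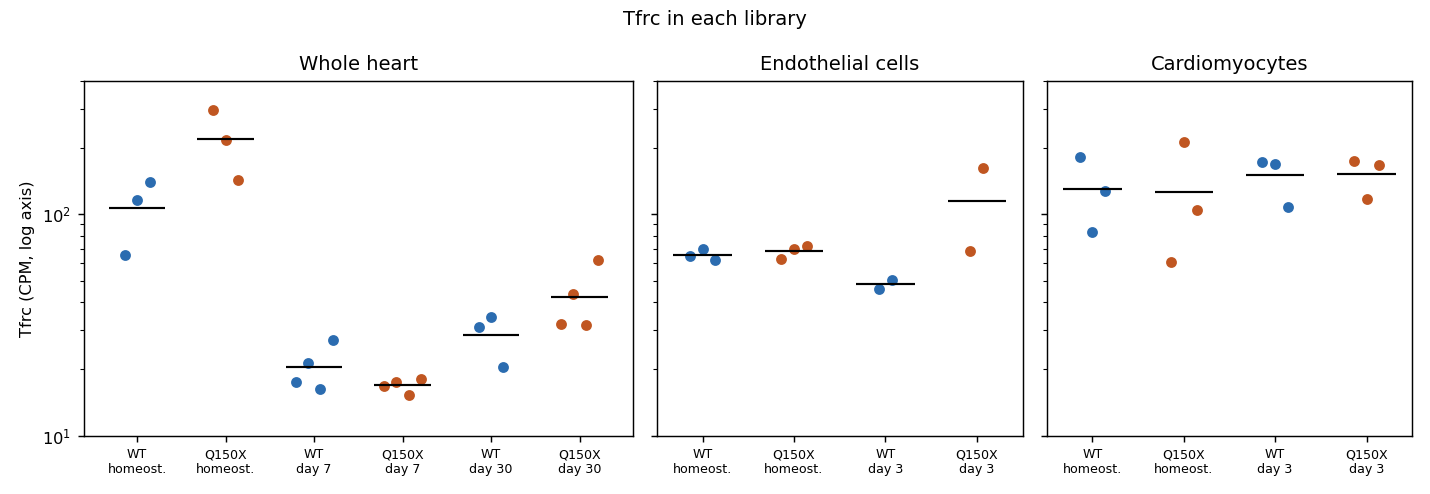
Tfrc in CPM (log axis) in each library of the 14 groups; points are libraries, blue WT and orange Q150X, and horizontal lines are group means. All heart libraries after MI lie at or below 61.9 CPM, while homeostasis hearts range from 65.5 to 296.7 CPM.

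Across the 14 groups the mean of Tfrc ran from 219 ± 76.6 CPM (SD, n = 3) in Q150X hearts at homeostasis to 16.9 ± 1.17 CPM (SD, n = 4) in Q150X hearts at day 7. Cardiomyocytes held 126 to 153 CPM in their 4 groups and endothelial cells 48.4 to 115 CPM. TMM factors were fitted within each compartment, so levels of different compartments are on unlike scales. The order of the 14 groups and the distances to Tfrc given below depend on that scaling. In this order of means, 12 of the 13 neighbouring pairs overlapped in their libraries; the exception was WT endothelial cells at homeostasis (65.5 ± 3.82 CPM, SD, n = 3) over those at day 3 (48.4 ± 3.00 CPM, SD, n = 2). Cardiomyocyte Tfrc did not pass the test at day 3, with log2 changes of 0.20 ± 0.447 in WT (adjusted p = 0.805) and 0.27 ± 0.447 in Q150X (adjusted p = 0.701). Genes whose centred log2 group means were among the closest to those of Tfrc were Zyg11b, Ube3a, Uprt and Fam120c. Their mean absolute distances over 14 groups were 0.503 to 0.597, against a median of 1.27 over 11463 candidate genes.

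Slc11a2, which moves iron across membranes, fell at day 7. It was 21.2, 24.2 and 26.6 CPM in WT hearts at homeostasis and 12.3, 15.4, 15.0 and 11.7 CPM at day 7, without overlap. In Q150X hearts it was 45.7, 25.3 and 22.8 CPM at homeostasis and 15.96, 15.5, 13.5 and 13.2 CPM at day 7, again without overlap. The log2 change was -0.82 ± 0.189 in WT (adjusted p = 0.00714) and -1.11 ± 0.188 in Q150X (adjusted p = 0.00035), and in Q150X -0.73 without the libraries that stood apart. In Q150X hearts at day 30 it did not pass (-0.30 ± 0.188, adjusted p = 0.233). Without the libraries that stood apart that change took the other sign (0.08, adjusted p = 0.674). WT hearts at day 30 held 34.0, 28.4 and 31.9 CPM, above their homeostasis libraries, a described difference of 0.39 ± 0.202.

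Ftl1, the ferritin light chain, rose in hearts. WT hearts held 90.6, 46.6 and 41.0 CPM at homeostasis and 127.7, 143.4, 127.4 and 127.3 CPM at day 7, and Q150X hearts held 69.0, 42.0 and 39.7 against 147, 165, 172 and 158 CPM. Every day-7 library lay above every homeostasis library of its genotype. The log2 changes were 1.15 ± 0.238 in WT (adjusted p = 0.00331) and 1.68 ± 0.242 in Q150X (adjusted p = 8.75e-05) at day 7, and 1.63 ± 0.242 in Q150X at day 30 (adjusted p = 0.00015). In WT at day 30 the described difference was 1.14 ± 0.249. Fth1, the heavy chain with ferroxidase activity, was 1595, 1174 and 1165 CPM in WT hearts at homeostasis and 1771, 1357, 1761 and 1804 CPM at day 7, with overlap. Its log2 changes did not pass: 0.35 ± 0.179 (adjusted p = 0.197) in WT and 0.35 ± 0.179 (adjusted p = 0.158) in Q150X at day 7, and 0.16 ± 0.178 (adjusted p = 0.526) in Q150X at day 30. Without the libraries that stood apart Fth1 passed at day 7 in WT (0.48, adjusted p = 0.048) and in Q150X (0.60, adjusted p = 0.00816), and at day 30 in Q150X (0.41, adjusted p = 0.0393).

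Hmox1, which breaks down heme and frees its iron, rose 4.05-fold in WT and 4.06-fold in Q150X hearts at day 7. WT hearts held 11.4, 6.40 and 6.25 CPM at homeostasis and 46.4, 23.9, 24.1 and 35.6 CPM at day 7, with no overlap. Q150X hearts held 11.6, 6.34 and 6.77 CPM at homeostasis and 28.7, 47.5, 27.3 and 30.1 CPM at day 7, again with no overlap. The log2 changes were 2.02 ± 0.370 in each genotype (adjusted p = 0.00146 in WT and 0.000698 in Q150X). In Q150X hearts at day 30 the libraries held 63.9, 32.1, 37.1 and 18.4 CPM, a log2 change of 2.20 ± 0.372 (adjusted p = 0.000409).

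**Figure D2:**
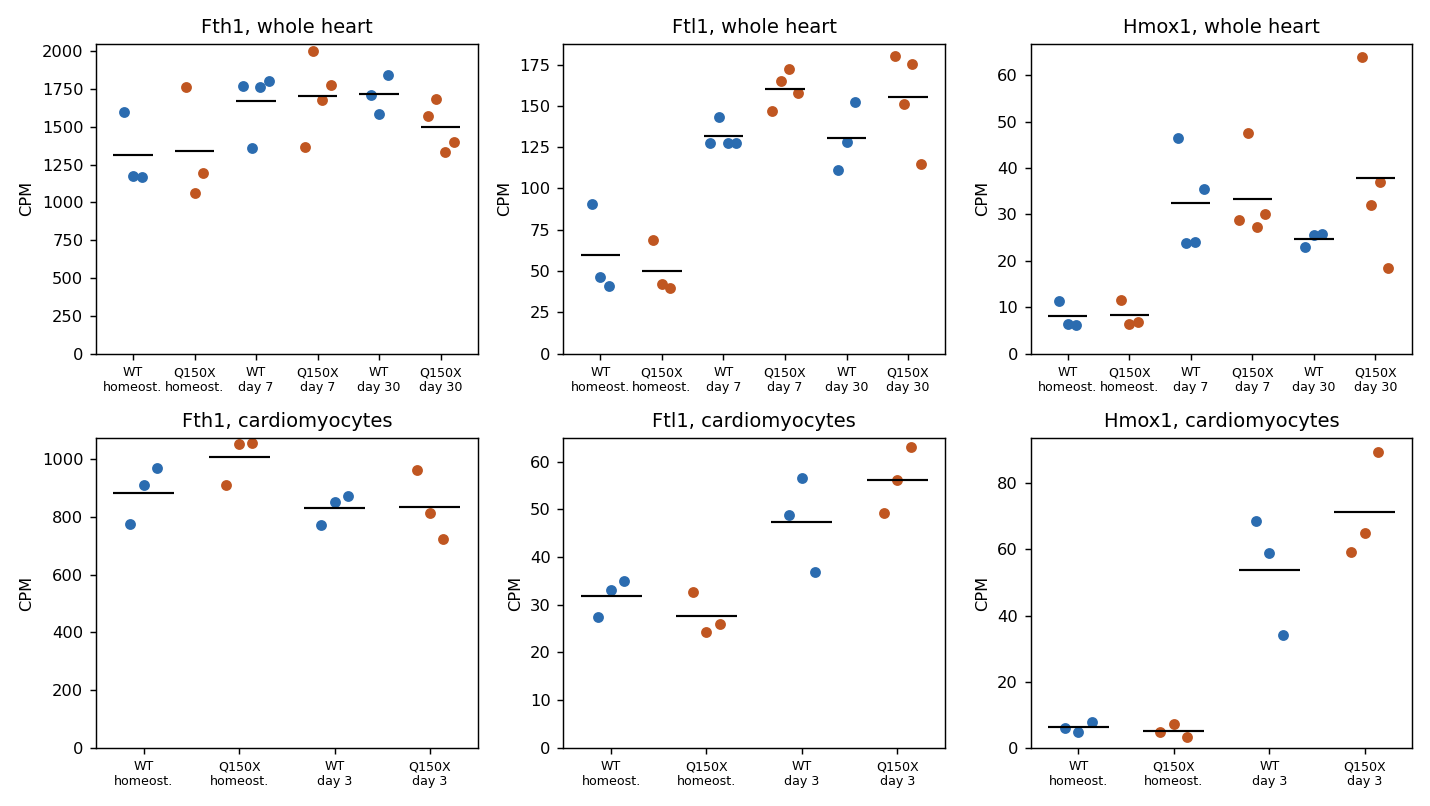
CPM of Fth1, Ftl1 and Hmox1 by library in whole hearts (top) and cardiomyocytes (bottom); points are libraries, horizontal lines group means, and each axis starts at 0. Heart Ftl1 is at most 90.6 CPM at homeostasis and at least 111 CPM after MI, and cardiomyocyte Hmox1 is at most 7.83 CPM at homeostasis and at least 34.2 CPM at day 3.

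Among the export genes, Slc40a1 rose at day 7 and did not pass at day 30. It was 27.9, 21.5 and 21.8 CPM in WT hearts at homeostasis and 50.8, 36.3, 45.4 and 42.8 CPM at day 7, with no overlap. Q150X hearts held 16.1, 18.45 and 20.6 CPM against 38.9, 45.5, 36.0 and 40.5 CPM. The log2 changes at day 7 were 0.89 ± 0.164 in WT (adjusted p = 0.00146) and 1.13 ± 0.166 in Q150X (adjusted p = 9.7e-05), and -0.26 ± 0.162 in Q150X at day 30 (adjusted p = 0.23). Cp was 72.4, 94.2 and 85.1 CPM in WT hearts at homeostasis and 144.5, 111, 149 and 132 CPM at day 7. It passed at day 7 in WT (0.68 ± 0.187, adjusted p = 0.021) and in Q150X, where the groups overlapped (0.52 ± 0.186, adjusted p = 0.0462). The Q150X call was lost without the libraries that stood apart (0.34, adjusted p = 0.173). At day 30 Cp did not pass in Q150X, though the groups did not overlap (0.49 ± 0.186, adjusted p = 0.0526). That change passed in 6 of 15 alternatives, and was 0.31 (adjusted p = 0.172) without the libraries that stood apart. The described difference of Cp in WT at day 30 was 0.37 ± 0.197, without overlap. Heph was at 2.42 to 7.26 CPM in all 21 heart libraries and did not pass in the 3 tested MI comparisons.

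At day 7, 6 of the 8 members tested were called in WT hearts (4 higher, 2 lower), where 13.7% of all genes were called. That comparison shares its homeostasis libraries with the contrast the set was chosen from. Tfrc, for which the set was chosen, is among its calls, so this count is a description of the set. In Q150X hearts 6 of 8 were called (4 higher, 2 lower), against 26.0% of all genes, and at day 30 3 of 8 were called against 29.7%. The median log2 change of the members was 0.52 in WT and 0.43 in Q150X at day 7, against 0.05 and 0.06 over all genes. In WT hearts at day 30, the contrast the set was chosen from, 8.93% of all genes were called, and the members were not counted there.

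**Figure D3:**
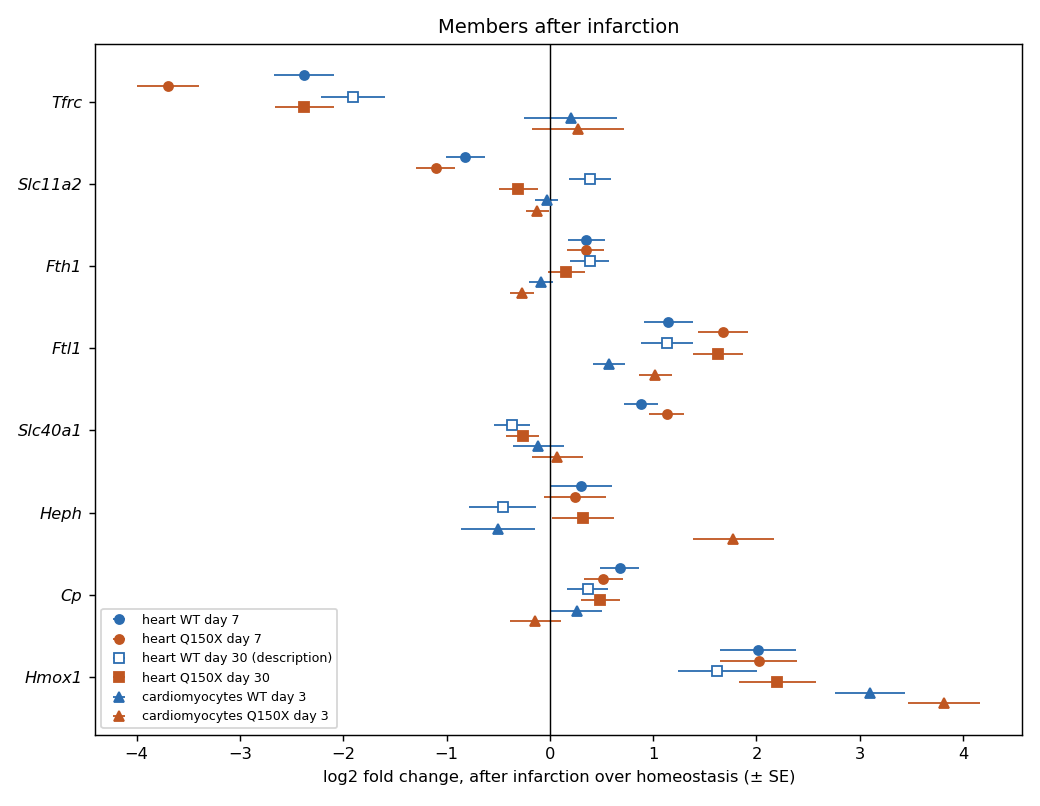
Log2 fold change (± SE) of 8 members after MI over homeostasis in hearts and cardiomyocytes; blue is WT, orange Q150X, and open squares mark the contrast the set was chosen from. Tfrc lies between -3.70 and -1.91 in hearts and between 0.20 and 0.27 in cardiomyocytes, while Hmox1 is at least 1.62 in all 6.

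The summed level of 15 macrophage markers was higher in hearts after MI, with ranges that overlapped homeostasis at day 7. It was 277 to 547 CPM in homeostasis hearts, 437 to 1589 CPM at day 7 and 825 to 2371 CPM at day 30, and none of the 15 was at 0 in any heart group. The 10 fibroblast markers summed to 1780 to 4954 CPM at homeostasis, 2995 to 6056 CPM at day 7 and 4206 to 8317 CPM at day 30. The 12 endothelial markers in WT hearts went from 1482 to 1630 CPM at homeostasis to 970 to 1363 CPM after MI. In Q150X hearts they overlapped, at 812 to 1557 CPM at homeostasis, 1138 to 1250 CPM at day 7 and 731 to 1108 CPM at day 30. The 12 cardiomyocyte markers summed to 57750 to 93100 CPM at homeostasis and 36910 to 64240 CPM after MI. In bulk tissue, fewer cells of a type and less RNA per cell cannot be told apart, and the part of these cell types in the member changes was not tested.

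Q150X and WT hearts were compared at each time to ask whether the stop codon altered these genes. No member was called by edgeR at homeostasis, day 7 or day 30, where 0%, 0% and 0.443% of all genes were called. At an unadjusted p under 0.05 there were 2 members (Tfrc and Slc40a1), 0 and 1 (Heph). DESeq2 called 0 in each, and limma-voom called 1 at day 30 (Slc11a2) and 0 at the other times. Tfrc at homeostasis was 2.05-fold higher in Q150X, without overlap between the groups (1.03 ± 0.303, adjusted p = 1), and 0.50 on the log2 scale without the libraries that stood apart. The homeostasis and day-30 comparisons use WT libraries of the contrast the set was chosen from. The change of Tfrc from homeostasis to day 7 differed between genotypes by -1.32 ± 0.402 (adjusted p = 1), and by -0.62 without the libraries that stood apart. In that interaction 0 of 8 members and 0% of genes were called, with 1 member (Tfrc) at an unadjusted p under 0.05 and 0 by DESeq2 and by limma-voom. A p over the threshold does not show that the genotypes were alike.

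Cardiomyocytes at day 3 showed a rise of Hmox1 and Ftl1. Hmox1 was 6.02, 4.91 and 7.83 CPM in WT at homeostasis and 68.5, 58.9 and 34.2 CPM at day 3, and in Q150X it was 4.68, 7.14 and 3.25 against 59.2, 65.0 and 89.4 CPM. The groups did not overlap, and the log2 changes were 3.10 ± 0.340 (adjusted p = 0.000301) and 3.82 ± 0.350 (adjusted p = 7.5e-05). Ftl1 rose by 0.57 ± 0.158 in WT (adjusted p = 0.022) and 1.02 ± 0.159 in Q150X (adjusted p = 0.000416). The WT call was lost without homeostasis replicate 1 (0.48), day-3 replicate 1 (0.56) or day-3 replicate 2 (0.43). Heph was called in Q150X (1.78 ± 0.392, adjusted p = 0.00355), from 0.25, 0.52 and 0.43 CPM to 1.73, 1.19 and 1.28 CPM. Those homeostasis values rest on 6 to 16 counts per library. Endothelial markers summed to 158 to 241 CPM in Q150X cardiomyocytes at homeostasis and 239.7 to 287.5 CPM at day 3. Their part in the Heph rise was not tested.

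In all, 2 of 8 members were called in WT cardiomyocytes and 3 of 8 in Q150X, against 17.4% and 27.0% of all genes. The macrophage markers summed to 2.87 to 14.6 CPM at homeostasis (Fcgr1, Itgam and Folr2 at 0 in all WT libraries) and 143 to 406 CPM at day 3. The fibroblast markers went from 34.3 to 168 CPM at homeostasis to 391 to 815 CPM at day 3. The part of both in the Hmox1 rise was not tested. Between genotypes, 0 members and 0% of genes were called by edgeR at homeostasis, at day 3 and in the interaction. Heph at homeostasis (0.401 against 1.43 CPM, log2 difference -1.81 ± 0.397, adjusted p = 0.134) was the 1 member at an unadjusted p under 0.05, and Heph was also the 1 member so placed in the interaction; at day 3 there was 0. DESeq2 called Heph in both, and 0 at day 3, and limma-voom called 0 in all 3.

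Endothelial libraries at day 3 were few and unlike each other. In WT, Hmox1 was 31.1, 32.3 and 36.6 CPM at homeostasis and 364 and 855 CPM at day 3 (log2 change 4.19 ± 1.0, adjusted p = 0.0353), and Slc40a1 was 3.66, 3.32 and 4.29 against 10.7 and 33.5 CPM (2.56 ± 0.644, adjusted p = 0.0428). Fth1 was 661.5, 758.5 and 724 against 2654 and 3302 CPM, without overlap (2.06 ± 0.698, adjusted p = 0.107). These 2 of 9 calls stood beside 9.52% of all genes, and leaving out a library left 0 to 1 member called.

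In Q150X the 2 day-3 libraries held Fth1 at 6747 and 715.5 CPM, Ftl1 at 850 and 166 CPM and Hmox1 at 949 and 36.3 CPM. The second, with high Rag1, lay inside or just below the homeostasis range for each of these (671 to 827, 168 to 213 and 37.3 to 41.4 CPM). That position depends on the scaling, since the TMM factor of this library was 1.31, the highest among the endothelial libraries. With both libraries 5 of 9 members were called against 33.8% of all genes: Fth1 (2.32 ± 0.701), Slc11a2 (1.12 ± 0.198) and Hmox1 (3.66 ± 0.981) higher, and Heph (-2.82 ± 0.604) and Hamp (-2.94 ± 0.959) lower. Without the second library Hamp was not called, Ftl1, Slc40a1 and Cp were, and 7 of 9 passed. Without the first, Fth1 changed by -0.10 and Hmox1 by -0.14, and neither passed. Heph lies on the X chromosome, and its fall cannot be told apart from the difference in sex. The macrophage list summed to 124 to 245 CPM at homeostasis and 3002 to 9268 CPM at day 3, and the 8 neutrophil markers to 1.52 to 5.38 and 75.9 to 1506 CPM. In WT the endothelial list went from 12890 to 14300 CPM at homeostasis to 8022 to 8401 CPM at day 3, and the fibroblast list from 1138 to 1640 CPM to 3968 to 4839 CPM. The part of these cell types in the results was not tested.

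**Figure D4:**
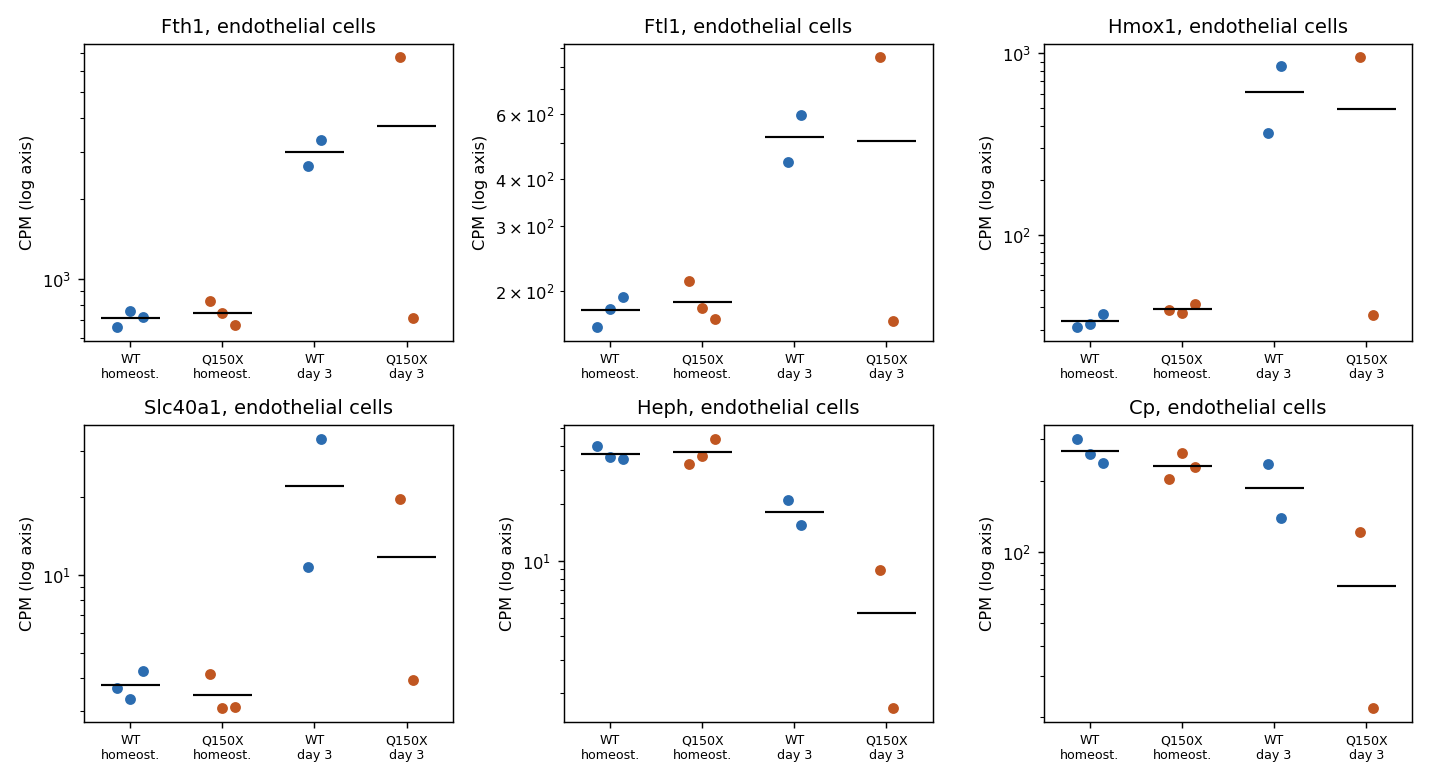
CPM (log axis) of 6 members in each endothelial library; points are libraries and horizontal lines group means, blue WT and orange Q150X. The 2 Q150X day-3 libraries differ widely, for example 949 and 36.3 CPM of Hmox1.

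Between genotypes in endothelial cells, edgeR called 0 members and 0% of genes at homeostasis, at day 3 and in the interaction. At an unadjusted p under 0.05 there were 0, 2 (Tfrc, Heph) and 2 (Tfrc, Heph) members. DESeq2 called 0, 2 and 0, and limma-voom 0 in each.

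Endothelial cells and cardiomyocytes at homeostasis differed in all 9 members, in a comparison that called 84.9% of all genes. In CPM scaled within each compartment, the libraries of the fractions overlapped for Tfrc and Fth1. Heph (22.7-fold, adjusted p = 1.28e-13), Hmox1 (1.60 ± 0.164, adjusted p = 2.44e-07), Ftl1 (1.54 ± 0.0964, adjusted p = 2.91e-10) and Cp (0.49 ± 0.135, adjusted p = 0.0036) were higher in endothelial cells. So was Hamp, at 77 to 132 counts per library against 0 to 2 (adjusted p = 2.28e-08). Slc40a1 (-3.91 ± 0.184, adjusted p = 4.71e-11), Tfrc (-2.03 ± 0.288, adjusted p = 4.39e-05), Slc11a2 (-1.60 ± 0.0922, adjusted p = 1e-10) and Fth1 (-1.45 ± 0.0930, adjusted p = 4.03e-10) were higher in cardiomyocytes. Homeostasis endothelial libraries also held pericyte and smooth muscle markers at 4123 to 6056 CPM, against 456 to 790 CPM in cardiomyocyte libraries. Fibroblast markers were at 890 to 1640 against 34.3 to 168 CPM, and erythroid markers at 500 to 987 against 20.2 to 23.5 CPM. The part of these cell types in the member differences was not tested. The fractions differ so much in composition that scaling by library size alone moved the median of all genes from 0.25 to 1.52. The signs of all 9 members held, and Fth1 (-0.17, adjusted p = 0.122) was no longer called, while Tfrc moved to -0.76 and Cp to 1.77.

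Hamp, the hormone made mainly by liver, was counted mostly in libraries that also held the atrial gene Myl7. Hearts held 258 Hamp counts in WT homeostasis replicate 1 and 202 in Q150X homeostasis replicate 1, and 0 to 6 counts in the other 19 heart libraries. Those are the libraries with Myl7 at 524 and 467 CPM. The 6 homeostasis endothelial libraries held 77 to 132 Hamp counts with Myl7 at 28.9 to 91.95 CPM, and cardiomyocytes held 0 to 2. The sum of 8 atrial markers, Myl7 among them, did not follow Hamp across groups. It reached 3106 (WT) and 3040 (Q150X) CPM in homeostasis hearts and was 127 to 354 CPM in homeostasis endothelial libraries. Yet it was 243 to 1202 CPM in day-30 hearts and 231 to 622 CPM in day-3 cardiomyocytes, which held 0 to 2 Hamp counts per library. Hamp was below the filter in hearts and cardiomyocytes and was not tested there, and whether atrial cells account for it was not tested. Its paralogue Hamp2 reached at most 0.119 CPM.

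**Figure D5:**
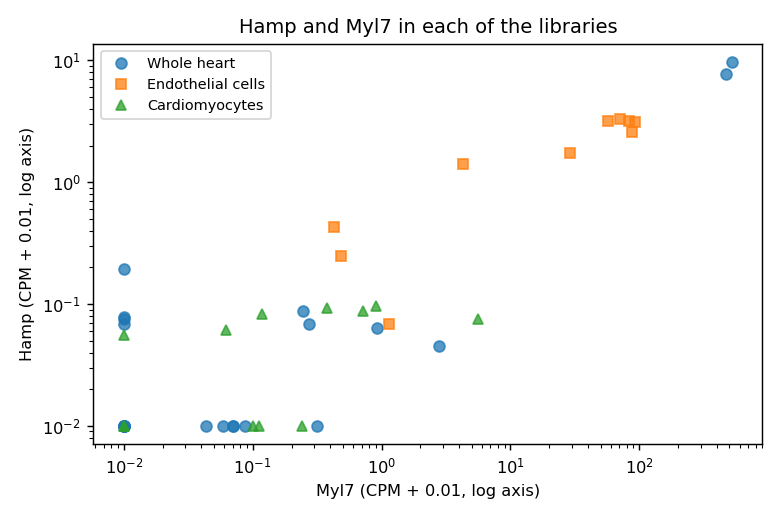
Hamp against the atrial gene Myl7 in each of the 43 libraries, both as CPM + 0.01 on log axes; symbols mark the compartment. The 2 hearts with 9.66 and 7.66 CPM of Hamp are those with 524 and 467 CPM of Myl7.

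Other iron and heme genes were counted by lists chosen with earlier results known. The shares of all genes called were 13.7% in WT and 26.0% in Q150X hearts at day 7, 29.7% in Q150X hearts at day 30, and 17.4% and 27.0% in WT and Q150X cardiomyocytes. Of 13 heme synthesis genes, 1 rose and 4 fell in WT hearts at day 7, 2 rose and 6 fell in Q150X at day 7, and 0 rose and 5 fell in Q150X at day 30. Of 22 genes of mitochondrial iron and iron-sulfur assembly, 1 rose and 3 fell, 1 rose and 9 fell, and 0 rose and 8 fell in the same order. Several of these counts, such as 5 of 13 and 8 of 22 at day 30, lie near the share over all genes. Cpox, a heme synthesis enzyme, fell by 1.02 ± 0.149 (adjusted p = 9.39e-05) in Q150X hearts at day 7, and Bola3, an iron-sulfur assembly factor, fell by 0.79 ± 0.144 in WT and by 0.95 ± 0.144 in Q150X. In Q150X cardiomyocytes 0 rose and 7 fell of 12, and 0 rose and 9 fell of 22, with Fech, which makes heme by inserting iron into protoporphyrin, down by 0.60 ± 0.0989. In WT cardiomyocytes the counts were 0 and 3 of 12, and 0 and 5 of 22. With DESeq2 size factors all these counts were the same. With library size alone the heme synthesis counts (rose, fell) were 1 and 4, and 2 and 6, at day 7 in WT and Q150X hearts, 0 and 2 in Q150X hearts at day 30, and 2 and 0, and 2 and 3, in WT and Q150X cardiomyocytes. For the iron-sulfur list they were 1 and 2, 3 and 3, 5 and 4, 3 and 0, and 2 and 1 in the same order. Falls thus no longer outnumbered rises for the iron-sulfur list in Q150X hearts at both times and in both cardiomyocyte groups, nor for heme synthesis in WT cardiomyocytes. That scaling moved the median log2 change of all genes from -0.03 to 0.24 in Q150X hearts at day 30 and from -0.01 to 0.30 in WT cardiomyocytes.

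Of 17 targets of NRF2, a regulator of antioxidant genes that also acts on Hmox1, 4 rose and 0 fell in WT hearts at day 7, 7 rose and 0 fell in Q150X at day 7, and 3 rose and 1 fell in Q150X at day 30. With library size alone these were 4 and 0, 9 and 0, and 9 and 1. In the main fit 13.7%, 26.0% and 29.7% of all genes were called in the same order, and the day-30 count lies near its share. Gclm, of glutathione synthesis, rose by 1.40 ± 0.160 (adjusted p = 2.05e-05) and 1.73 ± 0.162 (adjusted p = 1.28e-06). Hfe2 (hemojuvelin, of hepcidin control) fell by 1.05 ± 0.188 in WT and by 1.31 ± 0.188 in Q150X at day 7, and by 1.17 ± 0.188 in Q150X at day 30. At day 30 in Q150X 7 of 20 uptake and delivery genes rose and 2 fell, and among heme handling genes 2 of 14 rose and 0 fell, the latter below the 29.7% of all genes called. With library size alone those counts were 9 and 0, and 5 and 0. Gsta3, a glutathione transferase, was the list gene of smallest p there, at 39.2 against 5.07 CPM (2.95 ± 0.337, adjusted p = 3.86e-05). In WT cardiomyocytes 6 of the 17 NRF2 targets rose and 0 fell, among them Gclm (0.92 ± 0.137) and the quinone reductase Nqo1 (0.86 ± 0.132). In Q150X cardiomyocytes 5 rose and 0 fell. The shares of all genes called were 17.4% in WT and 27.0% in Q150X, and the Q150X count lies near its share. With library size alone 10 and 7 rose. Of 16 such targets in endothelial cells at day 3, 3 rose and 0 fell in WT and 4 rose and 1 fell in Q150X, where 9.52% and 33.8% of all genes were called. In the 2 WT endothelial libraries at day 3, Slc7a11, the cystine importer, was at 148 CPM against 0.638 CPM at homeostasis (7.85 ± 0.669, adjusted p = 0.000542). Those 2 libraries also held macrophage markers at 4335 to 5184 CPM against 167 to 213 CPM at homeostasis. Neutrophil markers were at 581 to 716 CPM against 2.47 to 4.68 CPM. The part of these cell types in the Slc7a11 rise was not tested, and sex and time cannot be told apart there.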

How the data were processed

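The measurements were bulk RNA-seq counts of 43 libraries in 14 groups. The authors deposited raw counts per gene, as the whole-number values of the table show, and RNA was taken with Trizol, per the labels' protocols. GRCm39, HISAT2 and kallisto are named, per the submitters' processing notes, with no role or version. The annotation and strand setting of the counting are unknown here, so overlapping and antisense genes cannot be told apart. Of the 57010 gene identifiers, 52029 matched a symbol.

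The heart, endothelial and cardiomyocyte libraries were fitted separately, each with all its groups, by edgeR 4.0.16 in R 4.3.3 (TMM, robust quasi-likelihood F-test). filterByExpr (count minimum 10, total minimum 15) left 17845, 18223 and 15169 genes. A further fit held both isolated fractions at homeostasis (17158 genes). P-values were adjusted by Benjamini and Hochberg over all genes of a fit. DESeq2 1.42.0 and limma-voom (limma 3.58.1), other scalings, no filter, the compared groups alone, a replicate block and leaving out libraries were alternatives. The fits were tested on simulated data.

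The members and lists were chosen with earlier results of these data known. The search for iron-responsive elements and the list counts by scaling were added after the data were seen. Named genes are every member, genes among the up to 4 called list genes of smallest p per comparison, and genes among the 5 most like Tfrc, not all of which are reported here. Fold changes are edgeR's fitted values, and CPM per kb uses the merged length of all GENCODE vM21 exons of a gene. Of 47 replicate pairs, 0 were identical. Same-numbered libraries deviated together, every correlation over 0.1, for Q150X with WT hearts at homeostasis (0.446 to 0.673) and for Q150X hearts at day 7 with homeostasis (0.116 to 0.184). Whether the numbers mark animals or batches is not stated.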

Additional observations from a re-analysis of the deposited data

Results flagged for a closer look

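Of 26 sets of a member's values in groups of 4 heart libraries, 3 had 1 library farther from the others than Dixon's 95% limit for groups of 4; chance flags about 1 in 20. In WT hearts at day 7, replicate 2 had Fth1 at 1357 CPM, below the others at 1761 to 1804 CPM. The same library had Ftl1 at 143.4 CPM, above the others at 127.3 to 127.7 CPM. In Q150X hearts at day 7, replicate 2 had Hmox1 at 47.51 CPM, above the others at 27.28 to 30.06 CPM.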

How the results depend on the processing

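Of the values recomputed under other settings, 2078 stayed on their side of the threshold, 58 no longer passed, 72 newly passed and 4 reversed. Among the 2078, 143 changed sign, 0 of them passing in either fit. In hearts at day 7, Tfrc, Ftl1, Hmox1, Slc40a1 and Slc11a2 kept their calls in both genotypes under all 15 alternatives, as did Tfrc, Ftl1 and Hmox1 in Q150X at day 30. Cp lost its call in 4 (WT) and 10 (Q150X) of 15. Endothelial counts of called members rest on few libraries. In WT at day 3 the 2 members called became 4 with library size alone, 0 with no filter, 7 with the compared groups alone, 5 by DESeq2, 8 by limma-voom and 0 to 1 with a library left out. In Q150X the 5 became 2 with no filter, 0 with the compared groups alone, 9 by DESeq2, 1 by limma-voom and 2 to 7 with a library left out. The genotype difference at day 3 had 2 by DESeq2, 2 without the libraries that stood apart and 0 to 7 with a library left out; the interaction had 1 and 0 to 7 for the last of these. Without Q150X day-3 replicate 1, Fth1 reversed to -2.09 between genotypes, to -0.099 after MI and to -2.16 in the interaction, and Hmox1 to -0.14 after MI; with each library left out in turn the highest were 1.15, 3.15, 1.09 and 4.58. Elsewhere limma-voom called 1 member between genotypes and 5 in Q150X at day 30 in hearts. Between cardiomyocyte genotypes at homeostasis no filter and DESeq2 called 1 each, and DESeq2 called 1 in the interaction. WT cardiomyocytes after MI had 1 to 2 with a library left out.

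With a replicate block, 0 members were called in WT endothelial cells after MI and 2 in Q150X; in the paired comparisons 0 were called between heart genotypes at homeostasis and 6 in Q150X hearts at day 7, as without it. Counts over all genes moved too: 79 between heart genotypes at day 30 became 0 to 1751, 1734 in WT endothelial cells after MI 442 to 7652, and 6159 in Q150X 855 to 12002. In hearts 2448 (WT, day 7) became 1430 to 5896, 4641 (Q150X, day 7) 2247 to 6250 and 5307 (Q150X, day 30) 3247 to 8989. In cardiomyocytes 2634 (WT) became 1352 to 4340 and 4097 (Q150X) 2430 to 5255. Between genotypes 0 became up to 543 in cardiomyocytes at homeostasis and up to 10498 in endothelial cells at day 3, and in the interactions up to 219 and 8765. Library size alone moved the share of called genes that were higher from 58.4% to 94.7% in WT and from 55.1% to 90.4% in Q150X cardiomyocytes, and from 52.4% to 81.3% (day 30) and 52.9% to 77.4% (day 7) in Q150X hearts. It moved that share from 55.3% to 41.6% in Q150X endothelial cells, from 34.2% to 52.2% between heart genotypes at day 30, and from 55% to 78.6% between the fractions.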
